A study of Mus musculus with 72 samples.

Results

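The livers of female mice that drank tertiary butyl alcohol (TBA, a small branched alcohol used as a solvent) at 10 mg/mL, the lowest dose of the series, for 28 d were compared with those of mice given no TBA over the same time. The comparison holds 18 of the 72 libraries, chosen by their labels for dose and duration: 9 at 10 mg/mL and 9 controls at 0 mg/mL. All animals were B6C3F1 hybrids that were 9 to 11 weeks old at the start, at 15 to 25 g body weight, and they were housed singly and dosed through the drinking water, so each library is 1 animal. Sections of formalin-fixed, paraffin-embedded liver were scraped from slides and measured with TempO-Seq, in which paired detector oligos are ligated on a chosen transcript and their reads are counted. The deposited table gives counts for 30146 probes of 21400 gene symbols, of which 17050 probes of 11784 symbols passed a filter on low counts and held 99.9% of all counts. The other groups of the series received 20 or 40 mg/mL for 28 d, or 0, 10, 20 or 40 mg/mL for 14 d. The series title names an anti-thyroid mode of action as the question behind thyroid follicular cell adenomas in this sex and species.

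The liver helps to set how long thyroid hormone lasts in the blood. It conjugates thyroxine by glucuronosyltransferases and sulfotransferases, deiodinates it, carries it in and out of hepatocytes and secretes the proteins that bind it in plasma. Foreign compounds can raise several of these enzymes through the nuclear receptors CAR (constitutive androstane receptor) and PXR (pregnane X receptor), whose best-known target in mouse liver is the cytochrome P450 gene Cyp2b10.

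Libraries at 10 mg/mL held 8.60 to 11.3 M counts and controls 7.77 to 10.5 M, a mean difference of 0.590 M (exact permutation test, two-sided, adjusted p = 0.538). Control replicate 3 stood apart from the other 8 controls. Its 20 most abundant probes took 13.4% of counts, against 20.1% to 23.6% in the other controls, and its scaling factor by the trimmed mean of M values was 1.37, against 0.792 to 0.957. At 10 mg/mL the share was 20.1% ± 1.54, against 21.0% ± 3.09 in controls (SD, n = 9 each; exact permutation test, two-sided, adjusted p = 0.684). Without control replicate 3 the share was 1.80 percentage points lower at 10 mg/mL and the scaling factor 0.0884 higher (both exact permutation adjusted p = 0.0313). The 7 hepatocyte markers found in the table had a summed level of 24729.6 to 45260.2 CPM (counts per 1 M counts of the scaled library) at 10 mg/mL and 13651 to 63477 CPM in controls, where replicate 3 was the lowest. The other controls ran from 38906 to 63477 CPM, so the median at 10 mg/mL, 38254 CPM, lay below all of them while the ranges overlapped. Probe Apoa1_68759 alone had 10197 to 26342.5 CPM at 10 mg/mL and 5753 to 42175 CPM in controls. Apoa1 thus weighed heavily in the sum. In edgeR over all 8 groups, 4 of the 7 markers had a positive and 3 a negative log2 fold change (median 0.0093). With the 2 groups alone and without control replicate 3, Apoa1_68759 fell (-0.66, edgeR adjusted p = 0.0474) and Apoa1_31604 did not pass (0.127). Many results that rest on control replicate 3 are therefore given with and without it.

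With the spread between animals estimated over all 8 groups, 0 of 17050 probes (0%) passed an adjusted p of 0.05 at 10 mg/mL against control (edgeR quasi-likelihood test with Benjamini-Hochberg adjustment). At an unadjusted p under 0.05 the same test gave 707 probes (4.15%), 328 higher (1.92%) and 379 lower (2.22%). DESeq2 called 0 probes, with 780 under an unadjusted 0.05. The count differed between fits. With the 4 groups of 28 d in the fit, a setting added after seeing the data, edgeR called 0 of 15744 probes (761 under an unadjusted 0.05). With the 18 libraries of the 2 groups fitted alone, 11 of 14088 probes passed (0.0781%), 9 higher (0.0639%) and 2 lower (0.0142%). limma with sample quality weights called 18 of 17050 (0.106%), 8 higher (0.0469%) and 10 lower (0.0587%), and 5 of the 11 were among them. The 11 probes belong to 9 genes. Cyp2b10, Cyp2c29, Cyp2a5, Cyp2c37, Slc6a12, Upp2 and Mmp19 were higher, and Scp2 was among those lower. With control replicate 3 also left out, 199 of 14186 probes of 183 genes passed (1.4%), 104 higher (0.733%) and 95 lower (0.67%), and the 11 were all among them. This setting too was added after seeing the data, so calls below that need this library left out come from an unplanned fit. Every adjusted p over the 8 groups was 0.999 for the genes named below unless another fit is stated.

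In 8 of 17050 probes (0.0469%) the 2 groups did not overlap in a single animal. Of these, 5 were higher at 10 mg/mL (0.0293%), and all 5 measure P450 transcripts: both probes of Cyp2b10, 2 of the 3 tested probes of Cyp2c29 and 1 of the 3 of Cyp2a5. The other 3 were lower (0.0176%) and include probes of Tra2b and Orc2.

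**Figure D1:**
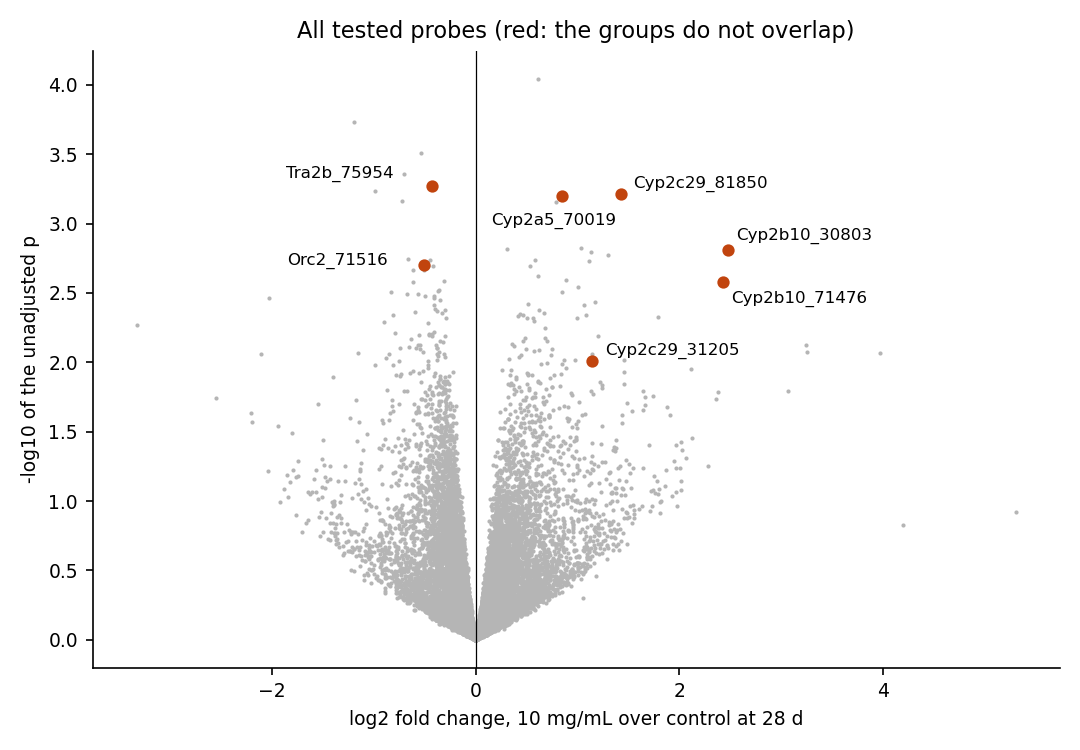
All 17050 tested probes by log2 fold change (10 mg/mL over control at 28 d, x axis) and by -log10 of the unadjusted p of edgeR's quasi-likelihood test (y axis), with 7 of the 8 probes whose groups do not overlap in red. The P450 probes lie to the right, with Cyp2b10_30803 at 2.48, while no probe passed after adjustment over all of them.

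The first 300 bases around the start of these P450 genes are given because some probes of each were higher in every dosed than in every control animal. They come from RefSeq on GRCm38.p6, from 250 bases before to 50 after the annotated start, all on the + strand: chr7:25897408-25897707 for Cyp2b10, chr19:39286835-39287134 for Cyp2c29 and chr7:26835089-26835388 for Cyp2a5. Capitals mark each match of AGGTCA or its reverse complement TGACCT, the half-site that nuclear receptors of the CAR and PXR type bind, searched on both strands.
Cyp2b10: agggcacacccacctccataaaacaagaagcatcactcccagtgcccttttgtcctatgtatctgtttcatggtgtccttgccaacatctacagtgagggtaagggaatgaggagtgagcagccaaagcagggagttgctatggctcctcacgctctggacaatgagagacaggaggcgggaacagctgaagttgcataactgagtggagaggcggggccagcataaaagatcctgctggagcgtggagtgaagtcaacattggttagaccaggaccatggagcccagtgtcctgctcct
Cyp2c29: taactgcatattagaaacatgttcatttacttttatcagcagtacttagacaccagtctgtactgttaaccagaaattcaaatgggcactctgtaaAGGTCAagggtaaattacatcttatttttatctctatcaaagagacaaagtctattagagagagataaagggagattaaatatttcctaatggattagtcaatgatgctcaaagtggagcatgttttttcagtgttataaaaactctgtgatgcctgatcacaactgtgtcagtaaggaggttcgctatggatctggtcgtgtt
Cyp2a5: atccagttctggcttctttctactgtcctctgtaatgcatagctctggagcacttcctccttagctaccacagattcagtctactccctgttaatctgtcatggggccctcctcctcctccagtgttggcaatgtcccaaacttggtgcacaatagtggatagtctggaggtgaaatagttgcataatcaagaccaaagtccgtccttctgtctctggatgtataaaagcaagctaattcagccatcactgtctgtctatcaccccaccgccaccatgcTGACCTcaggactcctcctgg
The Cyp2c29 and Cyp2a5 windows held 1 match each and the Cyp2b10 window 0, while 5340 of 32851 promoters of this length (16.3%) held at least 1. The match in Cyp2a5 lies after the start. Nothing about binding follows from these letters.

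Cyp2b10, a P450 that oxidises drugs and steroids and is the standard readout of CAR, had its lowest, median and highest animals at 153, 335 and 610.4 CPM at 10 mg/mL, against 23.7, 51.5 and 95.2 CPM in controls (probe Cyp2b10_30803). All 9 dosed animals lay above all 9 controls. Its log2 fold change was 2.48 (SE 0.75, unadjusted p = 0.00155), and it rose with the 2 groups fitted alone (2.50, SE 0.30, edgeR adjusted p = 0.00107), also without control replicate 3 (2.39, adjusted p = 0.00160) and in limma (adjusted p = 0.0210). The second probe, Cyp2b10_71476, ran from 32.1 to 149 CPM at 10 mg/mL and from 3.59 to 26.8 CPM in controls, again without overlap (log2 fold change 2.43, SE 0.78).

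Cyp2c29, a P450 of the 2C family that also epoxidises arachidonic acid, measured 2530.3, 3187 and 4789.7 CPM at 10 mg/mL (lowest, median and highest animal), against 404, 1349.5 and 1909.7 CPM in controls (probe Cyp2c29_81850). The lowest control was replicate 3, with the next at 1079 CPM, and the groups were apart with or without it. The log2 fold change was 1.42 (SE 0.40, unadjusted p = 0.000611), and the gene rose with the 2 groups alone (1.45, edgeR adjusted p = 0.000846). With control replicate 3 left out too, the value was 1.32 (adjusted p = 2.49e-07). Its probe Cyp2c29_31205 was also without overlap, at 1253 to 2903 CPM against 159 to 1043 CPM in controls, but passed only once control replicate 3 was left out (adjusted p = 0.0778 with it and 0.000427 without it). The third probe, Cyp2c29_81849, had a log2 fold change of 0.67 and passed in neither fit (adjusted p = 0.572 and 0.181). Cyp2c genes are close copies of each other, so reads of one may count towards another.

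Cyp2a5, the coumarin 7-hydroxylase of mouse liver, showed a smaller and tighter difference. The lowest, median and highest animals stood at 2200.4, 2769.8 and 3257 CPM at 10 mg/mL, against 1085, 1516 and 2011 CPM in controls (probe Cyp2a5_70019). The log2 fold change was 0.85 (SE 0.24, unadjusted p = 0.000628), and the gene rose with the 2 groups alone (edgeR adjusted p = 0.0023, 0.000287 without control replicate 3). Cyp2a5_31713 passed there too (adjusted p = 0.0265), and Cyp2a5_75177 only without control replicate 3 (0.195 with it, 0.0432 without it). Cyp2a5 is nearly identical to other Cyp2a genes, so the copy behind each probe is uncertain.

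**Figure D2:**
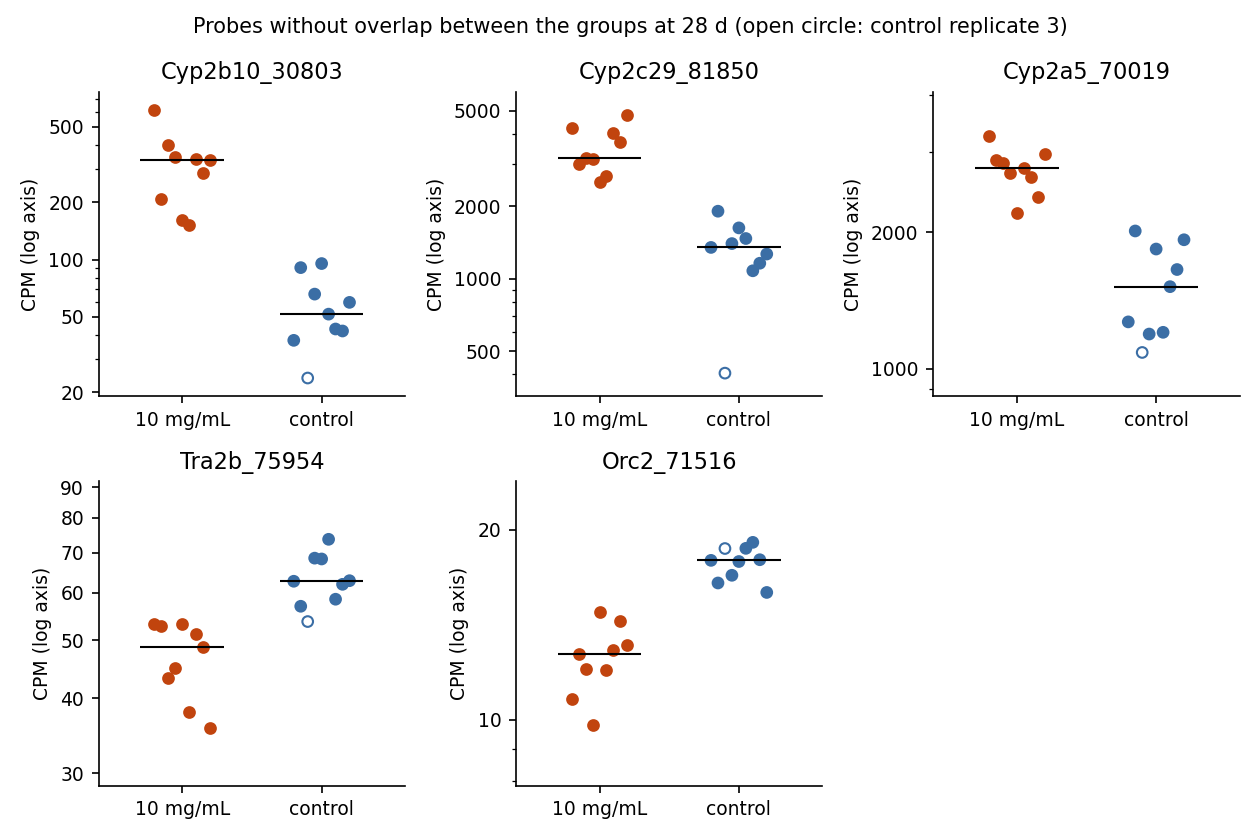
CPM (log axis) of each animal at 10 mg/mL (left) and of each control (right) at 28 d, with the median as a line, for 5 of the 8 probes without overlap. Cyp2b10, Cyp2c29 and Cyp2a5 are above and Tra2b and Orc2 below all controls, and control replicate 3 (open circle) is the lowest control for the 3 P450 probes and for Tra2b.

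Of 29 tested CAR and PXR targets, 5 were higher and 0 lower at an unadjusted p under 0.05 (1.92% and 2.22% of all probes), and 23 had a positive log2 fold change (median 0.32, against -0.0027 over all probes). With the 2 groups fitted alone 4 rose, and without control replicate 3 as well 6 rose: Cyp2b10, Cyp2c29, Cyp2a5, Cyp2c37, Cyp2c55 and Por. Cyp2c37, a further P450 of the 2C family, measured 40.4 to 71.9 CPM at 10 mg/mL and 26.0 to 44.4 CPM in controls, with 8 of 9 dosed animals above all controls (log2 fold change 0.70, adjusted p = 0.00815 with the groups alone). Cyp2c55, also of that family, had 16.4, 31.8 and 77.2 CPM at 10 mg/mL (lowest, median and highest) and 0, 11.7 and 19.0 CPM in controls (log2 fold change 1.79, SE 0.61). For Cyp2c55 8 of 9 dosed animals exceeded every control, the 0 was control replicate 3, and the call needed that library left out (adjusted p = 0.0148, 0.245 with it). Por, the reductase that passes electrons to P450 enzymes, had medians of 50.8 CPM at 10 mg/mL and 35.0 CPM in controls (log2 fold change 0.55), and control replicate 3 was its highest control at 58.8 CPM. Its adjusted p with the groups alone was 0.163, and 0.00520 without that library. The rise of Por rests on probe Por_29647: without that library, Por_67503, of similar abundance (medians of 59.1 CPM at 10 mg/mL and 43.7 CPM in controls), had an adjusted p of 0.345 and Por_78618 one of 0.173. Ces2a, a carboxylesterase, passed there at the probes Ces2a_65564 and Ces2a_78586 (0.54 and 0.53, adjusted p = 0.0107 and 0.0363) but not at its most abundant probe (adjusted p = 0.301).

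Other CAR and PXR targets did not separate the groups. Cyp3a11, the main P450 target of PXR in mouse liver, measured 447 to 1034 CPM at 10 mg/mL and 193 to 1156 CPM in controls (log2 fold change -0.05, SE 0.29, and -0.16 without control replicate 3 in the fit of the groups alone). The receptors themselves, Nr1i3 (CAR) and Nr1i2 (PXR), had log2 fold changes of -0.01 (SE 0.17) and 0.06 (SE 0.14). Cyp2a22, a P450 outside that list, had medians of 15.9 CPM at 10 mg/mL and 9.09 CPM in controls, but only 4 of 9 dosed animals were above all controls (log2 fold change 1.11, SE 0.34).

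**Figure D3:**
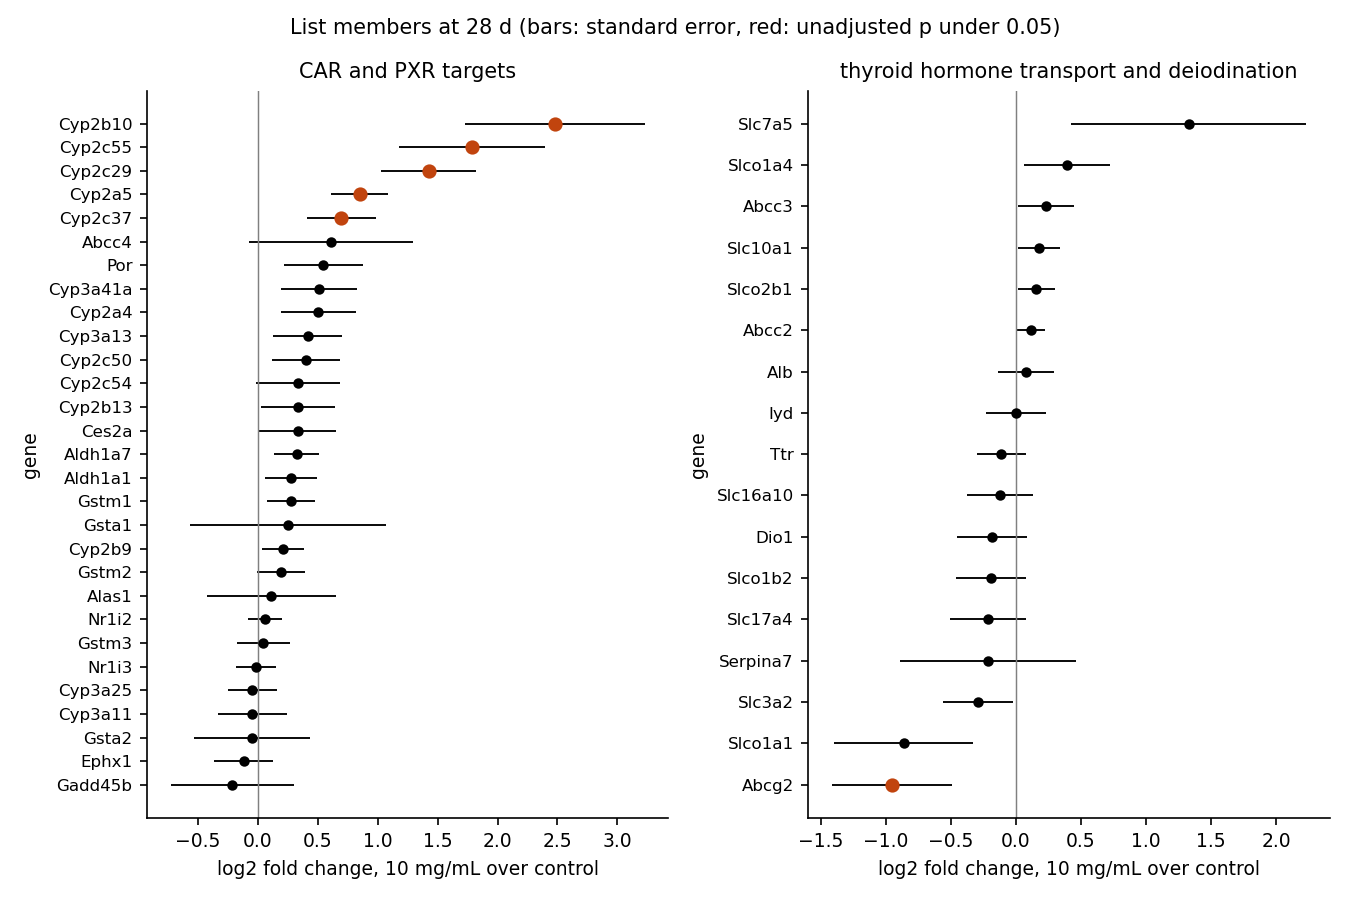
Log2 fold changes at 28 d (10 mg/mL over control, x axis, bars are standard errors) of the 29 tested CAR and PXR targets (left) and of 17 of the 18 tested genes of thyroid hormone transport and deiodination (right), with an unadjusted p under 0.05 in red. Cyp2b10, Cyp2c55, Cyp2c29, Cyp2a5 and Cyp2c37 lead the left panel, and Abcg2 alone is red in the right one.

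Among the remaining probes with the smallest p, those higher at 10 mg/mL came from unrelated functions. Mmp19, a matrix metalloproteinase, had 18.6, 30.3 and 41.7 CPM at 10 mg/mL (lowest, median and highest) and 16.6, 18.4 and 24.4 CPM in controls, with 8 of 9 dosed animals above all controls. It had the smallest p of all probes (log2 fold change 0.61, SE 0.15, unadjusted p = 9.05e-05) and rose with the 2 groups alone (adjusted p = 0.0456). Slc6a12, a carrier of betaine and GABA, rose at probe Slc6a12_71142, with 29.6 to 41.2 CPM against 18.9 to 34.3 CPM in controls (log2 fold change 0.59, adjusted p = 0.0300 with the groups alone). Its more abundant probe, Slc6a12_73352, had a log2 fold change of 0.13. Upp2, a uridine phosphorylase, measured 417 to 985 CPM at 10 mg/mL and 213 to 486 CPM in controls (log2 fold change 0.76, adjusted p = 0.0354 with the groups alone). Upp2 and Cyp2c37 were named after their values were seen, because they complete the list of genes called in that fit.

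Serpinb1a, an inhibitor of neutrophil proteases, had 22.7 to 73.6 CPM at 10 mg/mL against 14.3 to 34.8 CPM in controls, so the ranges overlapped (log2 fold change 1.03, SE 0.31, limma adjusted p = 0.0210, 0.123 in edgeR with the groups alone). Eef1d, a subunit of the elongation factor that loads transfer RNA, differed by 0.31 (SE 0.09, limma adjusted p = 0.0210), with medians of 104 CPM at 10 mg/mL and 82.0 CPM in controls. Abhd15, a protein of lipid handling in fat cells, had 8 of 9 dosed animals above all controls (log2 fold change 0.53), and dosed replicate 1 lay far below the other 8 at 21.4 CPM. With the groups alone and control replicate 3 left out, Eef1d and Abhd15 rose (edgeR adjusted p = 0.0127 and 0.0435). The second Abhd15 probe, Abhd15_70284, did not pass there (0.299). Arhgap21, a GTPase-activating protein, stood out at Arhgap21_76858 alone (log2 fold change 0.79, SE 0.22), while its most abundant probe, Arhgap21_68019, gave 0.29 and Arhgap21_71379 gave -0.36.

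Tra2b, a splicing regulator, measured 35.7, 48.7 and 53.3 CPM at 10 mg/mL and 53.7, 62.7 and 73.7 CPM in controls (lowest, median and highest; log2 fold change -0.43, SE 0.12, limma adjusted p = 0.0333). Orc2, a subunit of the origin recognition complex of DNA replication, had 9.83 to 14.8 CPM against 15.9 to 19.1 CPM in controls (log2 fold change -0.50, SE 0.16). Neither passed with the 2 groups alone (adjusted p = 0.124 for Tra2b and 0.119 for Orc2), and both did without control replicate 3 (0.0162 for Tra2b and 0.0367 for Orc2). These values are of Tra2b_75954 and Orc2_71516, and a less abundant probe of each overlapped between the groups. Tra2b_79462 had 13.8 to 29.4 CPM against 14.7 to 36.6 CPM in controls (log2 fold change -0.18). Orc2_72148 had 3.45 to 10.6 CPM against 7.48 to 12.0 CPM (-0.35). Neither of these probes passed without control replicate 3 (edgeR adjusted p = 0.380 and 0.379).

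The peroxisomal enzymes Hao1 and Scp2 were also lower. Hao1, the glycolate oxidase of the liver, had 253, 298 and 382 CPM at 10 mg/mL and 337, 473 and 627 CPM in controls, with 6 of 9 dosed animals under every control (log2 fold change -0.53, SE 0.14). It fell in limma (adjusted p = 0.0182) and in the fit of the groups alone without control replicate 3 (0.00941), but not with it (0.124). Scp2, which encodes a sterol carrier and a thiolase of peroxisomal fat oxidation, fell with the groups alone at Scp2_78173 (138 to 219 CPM against 171 to 418 CPM in controls, log2 fold change -0.70, adjusted p = 0.0461). Its other probes differed in size: Scp2_72800 had -0.68, while the more abundant Scp2_29592 and Scp2_63300 both had -0.16.

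Of the transcripts below 0 with a small p, Arid3a, a DNA-binding transcription factor, had the largest value (log2 fold change -1.19, SE 0.30), with medians of 6.40 CPM at 10 mg/mL and 12.1 CPM in controls and 3 of 9 dosed animals under every control. Eif1a, a translation initiation factor, was at -0.73 (SE 0.21, limma adjusted p = 0.0210) and Sec13, a coat protein of vesicles that leave the endoplasmic reticulum, at -0.45 (SE 0.14, limma adjusted p = 0.0375). For Eif1a and Sec13 control replicate 3 was the lowest control, inside or below the dosed range. Both fell in the fit of the groups alone without that library (edgeR adjusted p = 0.0176 for Eif1a and 0.0165 for Sec13). Zfp110, a zinc finger gene, had a log2 fold change of -0.47 with 6 of 9 dosed animals under every control. Ccar1, a coactivator in cell cycle control, had -0.42 with 7 of 9.

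Enzymes that conjugate thyroid hormone gave different pictures by class. Of 16 tested glucuronosyltransferases, 0 were higher and 0 lower at an unadjusted p under 0.05 (median 0.02). Ugt1a1, which conjugates thyroxine and bilirubin, measured 1997, 2869 and 3981 CPM at 10 mg/mL and 965, 3006 and 3829.6 CPM in controls, with replicate 3 as the lowest control and the next at 2386 CPM. Its log2 fold change was 0.08 (SE 0.24) and -0.02 without control replicate 3 in the fit of the groups alone. Ugt1a6a (0.20, SE 0.39), Ugt1a9 (-0.45, SE 0.58) and Ugt2b1 (0.01, SE 0.25) overlapped between the groups as well. Ugt1a8, which was not in that list, had medians of 9.98 CPM at 10 mg/mL and 3.41 CPM in controls, and rose in the fit of the groups alone without control replicate 3 (1.41, edgeR adjusted p = 0.00882). Over the 8 groups its value was 1.15 (SE 0.42). Probes of the Ugt1a genes can share the exons these genes have in common.

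Sulfotransferases, which sulfate iodothyronines, steroids and drugs, had 5 of 13 tested members higher (38.5%) and 0 lower at an unadjusted p under 0.05 (median 0.52), against 1.92% higher and 2.22% lower over all probes. Sult1a1, the phenol sulfotransferase of the liver, had 772, 977 and 1153 CPM at 10 mg/mL and 617, 765 and 905 CPM in controls, and 8 of 9 dosed animals were above all controls. Its log2 fold change was 0.37 (SE 0.17), with an edgeR adjusted p of 0.206 for the groups alone and 0.0432 without control replicate 3, and it was the 1 member that rose there. The hydroxysteroid sulfotransferases Sult2a1 and Sult2a2 had log2 fold changes of 1.36 (SE 0.65) and 1.48 (SE 0.62). Without control replicate 5, their highest control at 227 and 24.4 CPM, the values were 2.18 and 2.34, and without dosed replicate 1 they were 1.00 and 1.11. They are near-identical copies, only 2 dosed animals exceeded all controls for each, and neither passed in any of these fits. Sult5a1 had 8.88 CPM as its median at 10 mg/mL and 4.25 CPM in controls, with 7 of 9 dosed animals above all controls and 1 below (log2 fold change 0.86, SE 0.40). Sult1d1 (0.21, SE 0.33) did not differ beyond the spread.

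Of 18 tested genes of thyroid hormone transport and deiodination, 0 were higher and 1 was lower at an unadjusted p under 0.05 (5.56%, against 2.22% of all probes; median -0.12). In the fit of the groups alone without control replicate 3, Abcc3, an export pump for conjugates, rose at Abcc3_30114 (0.45, edgeR adjusted p = 0.0196) but not at its most abundant probe (adjusted p = 0.313). The gene lower over the 8 groups, Abcg2, an export pump, was measured at 0.102 to 4.65 CPM at 10 mg/mL and 0.571 to 8.94 CPM in controls (log2 fold change -0.95). This rests on probe Abcg2_77190, as Abcg2_31832 and Abcg2_76782 both had -0.43 (edgeR unadjusted p = 0.214 and 0.192). Dio1, the deiodinase that turns thyroxine into its active form, had medians of 175 CPM at 10 mg/mL and 252 CPM in controls (log2 fold change -0.18, SE 0.27), and its lowest value, 94.7 CPM, was control replicate 3. The less abundant probes Dio1_31468, Dio1_31911 and Dio1_73779 had -0.01, 0.08 and 0.04. Slc10a1, a bile acid and hormone carrier, had 0.18 (SE 0.16). Slco1a1, an uptake carrier of organic anions, had medians of 25.4 CPM at 10 mg/mL and 45.0 CPM in controls (-0.86, SE 0.54), and Slco1a4, of the same family, had 9.49 CPM and 7.97 CPM (0.39, SE 0.33). Of the plasma carriers, Ttr (transthyretin) had -0.11 (SE 0.19).

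Serpina7, the thyroxine-binding globulin, had 5.58, 14.5 and 95.2 CPM at 10 mg/mL and 14.2, 21.2 and 64.2 CPM in controls (lowest, median and highest). The value was -0.22 (SE 0.68) with all animals and -0.89 without dosed replicate 1, the animal at 95.2 CPM. Of 15 tested genes that respond to thyroid hormone, 0 were higher and 0 lower at an unadjusted p under 0.05 (median -0.04). Thrsp, a regulator of fat synthesis named for its response to the hormone, was at 0.38 (SE 0.52) with all animals and at -0.19 without dosed replicate 7, which had 22.0 CPM against 1.72 to 6.12 CPM in the other dosed animals. Me1, the malic enzyme, was at -0.35 (SE 0.37) and the receptor Thrb at 0.23 (SE 0.16). Probe Me1_30135 fell in the fit of the groups alone without control replicate 3 (-0.44, edgeR adjusted p = 0.0498), while Me1_77697 had -0.04 over the 8 groups and did not pass in that fit (adjusted p = 0.839).

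Female-biased liver genes, whose level follows the steady growth hormone pattern of females, had 4 of 24 tested members higher (16.7%) and 0 lower at an unadjusted p under 0.05, and 23 of 24 were positive (median 0.55). Over all probes 1.92% were higher and 2.22% lower, with a median of -0.0027. Abcd2, a peroxisomal fatty acid transporter, had 5.98 to 16.6 CPM at 10 mg/mL and 5.37 to 11.4 CPM in controls (log2 fold change 0.55, SE 0.23) and Slc22a26, an organic anion carrier, had 0.92 (SE 0.40). In the fits of the groups alone, with and without control replicate 3, 0 members passed. Of 21 male-biased genes 1 was higher (4.76%) and 0 were lower (median -0.19). It was Mup12, a major urinary protein with near-identical copies, at 2274 to 9456 CPM in dosed animals and 1331 to 4035 CPM in controls (log2 fold change 0.89).

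Targets of the fatty acid receptor PPARA and genes of fatty acid oxidation had 0 of 33 higher and 4 lower (12.1%) at an unadjusted p under 0.05, and 26 of 33 were negative (median -0.16). Over all probes 1.92% were higher and 2.22% lower. Acot1, a thioesterase, was at -0.91 with all animals, but its highest control was replicate 3 at 322 CPM, and without it in the fit of the groups alone the value was -0.44. Fgf21, a fasting and stress hormone of the liver, had 0, 1.35 and 2.00 CPM at 10 mg/mL and 0.245, 3.66 and 8.32 CPM in controls (log2 fold change -1.80, SE 0.82). It fell once control replicate 3 was left out of the fit of the groups alone (-1.96, edgeR adjusted p = 0.0139). Its second probe, Fgf21_71031, had -1.22 over the 8 groups and did not pass in that fit (adjusted p = 0.194). Hadhb, a subunit of the mitochondrial trifunctional protein, had -0.31 (SE 0.14) and Pex11a, a factor of peroxisome division, -0.40 (SE 0.19). For Pex11a control replicate 3 had 52.1 CPM, against 18.7 to 26.0 CPM in the other controls, and without it the value was -0.19.

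Chaperones of the endoplasmic reticulum were lower at the median and wide in range. Of 24 genes of the unfolded protein and integrated stress response, 0 were higher and 3 lower (12.5%) at an unadjusted p under 0.05 (median -0.23). The shares over all probes were 1.92% higher and 2.22% lower. Hspa5, the chaperone BiP, had 2459, 3042 and 7218 CPM at 10 mg/mL and 965, 6716 and 12665 CPM in controls (log2 fold change -0.82, SE 0.40). Its lowest control was replicate 3 and the next had 3558 CPM. The other Hspa5 probes gave -0.93 and -1.07, Manf, a secreted stress factor, -0.84 (SE 0.36), and Sdf2l1, a partner of BiP, -0.86 (SE 0.41). At the most abundant probe of each member, 0 passed with the groups alone, with or without control replicate 3. The less abundant probe Dnajb9_68270 of Dnajb9, a co-chaperone of BiP, fell without that library (-1.30, edgeR adjusted p = 0.0299; -1.15 over the 8 groups), and so did Selenos, a selenoprotein of the endoplasmic reticulum that was not in the list (-0.80, adjusted p = 0.0447).

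In 9 further lists 0 members had an unadjusted p under 0.05 in either direction: synthesis of fatty acids and triglycerides (25 tested), bile acids (18), growth hormone and IGF signalling (16), pericentral (15) and periportal (18) hepatocyte genes, alcohol and aldehyde dehydrogenases (17), p53 targets (16), cell cycle genes (27) and genes of the urea cycle and amino acid breakdown (29). In the fit of the groups alone without control replicate 3, 3 of these members passed: Me1 as given above, the alcohol dehydrogenase Adh4, which fell (-0.41, edgeR adjusted p = 0.0317), and Afmid, an enzyme of tryptophan breakdown, which rose (0.36, adjusted p = 0.0311). Cyp2e1, the P450 that oxidises small alcohols, measured 5296 to 8794 CPM at 10 mg/mL and 2949 to 10253 CPM in controls (log2 fold change -0.12, SE 0.24). Adh1, the main alcohol dehydrogenase of the liver, was at -0.13 (SE 0.19). Control replicate 3 was the lowest control for both.

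The 14 Kupffer cell and macrophage markers had a summed level of 411 to 615 CPM at 10 mg/mL and 348 to 449 CPM in controls, with none at 0 and overlapping ranges. Of 13 tested, 3 were higher (23.1%) and 0 lower at an unadjusted p under 0.05 (median 0.21), against 1.92% and 2.22% of all probes. C1qa, a chain of complement C1q, had 16.4 to 35.8 CPM at 10 mg/mL and 11.8 to 21.7 CPM in controls (log2 fold change 0.57, SE 0.20). Clec4f, a lectin of Kupffer cells, was at 0.51 (SE 0.20) and Csf1r, the receptor for their growth factor, at 0.35 (SE 0.16) with 8 of 9 dosed animals above all controls. C1qa and Csf1r rose in the fit without control replicate 3 (adjusted p = 0.0162 and 0.0384). In bulk tissue more cells of a type and more RNA per cell cannot be told apart, and the part of these cells in the values of Mmp19 and Serpinb1a was not tested. Summed markers of stellate cells (226 to 356 CPM at 10 mg/mL, 220.5 to 302 CPM in controls), sinusoidal endothelium (612 to 869 CPM and 611 to 855 CPM) and exocrine pancreas (1.04 to 3.09 CPM and 0.729 to 5.45 CPM) overlapped. Lrat, the retinol acyltransferase of stellate cells, rose in the fit without control replicate 3 (0.67, adjusted p = 0.0238), as the 1 of 11 stellate markers tested there. Its second probe, Lrat_29065, had 0.18 (SE 0.28) over the 8 groups and did not pass in that fit (0.658). The 8 neutrophil markers, of which Elane was at 0, summed to 23.6 to 47.8 CPM at 10 mg/mL (median 35.4 CPM) and 11.4 to 47.5 CPM in controls (median 24.7 CPM), where replicate 3 was the highest and the next control had 27.1 CPM. Ly6g, a neutrophil surface protein, rose without that library (Ly6g_74159, 0.79, adjusted p = 0.0139). That probe alone had medians of 34.2 CPM at 10 mg/mL and 23.4 CPM in controls, so it made up most of the sum. Only 2 of the 8 markers passed the filter on low counts, and the sum and the call are not separate observations.

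The same dose was also given for 14 d, and the effect at 28 d minus that at 14 d was tested with the 9 animals of each of the 4 groups. No probe passed (0 of 17050, 0%, edgeR, 732 or 4.29% at an unadjusted p under 0.05, and 0 in DESeq2). In limma 2 probes passed, Agrn_80434 (0.53, adjusted p = 0.0423) and Ccnc_75884 (-0.61, adjusted p = 0.0423). Cyp2b10 had 232, 296 and 2751 CPM at 10 mg/mL for 14 d (lowest, median and highest) against 31.6, 54.6 and 101 CPM in 14 d controls, a log2 fold change of 3.76 that differed from the 28 d value by -1.28 (SE 1.01). The medians at 10 mg/mL were 335 CPM at 28 d and 296 CPM at 14 d, while the highest animals had 610.4 CPM at 28 d and 2751 CPM at 14 d. Cyp2c29 differed by -0.36 (SE 0.55) and Cyp2a5 by 0.28 (SE 0.33). The 3 macrophage genes had log2 fold changes of -0.45 (C1qa), -0.35 (Clec4f) and -0.31 (Csf1r) at 14 d, and the differences between durations, 1.02, 0.86 and 0.65, did not pass after adjustment.

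Against 40 mg/mL at the same duration, a comparison that uses no control animal, 13 of 17050 probes passed (0.0762%, edgeR, 1371 or 8.04% at an unadjusted p under 0.05), 4 higher (0.0235%) and 9 lower (0.0528%) at 10 mg/mL. Serpina7 was among those lower: its lowest, median and highest animals were 5.58, 14.5 and 95.2 CPM at 10 mg/mL, against 51.6, 288 and 1341 CPM at 40 mg/mL (log2 fold change -4.26, SE 0.75, adjusted p = 0.00315). Fgf21 had 0 to 2.00 CPM at 10 mg/mL and 0.305 to 162 CPM at 40 mg/mL (-4.75, SE 0.85, adjusted p = 0.00315). The second probes of both passed too (-4.55 and -4.59). Lepr, the leptin receptor, was at 3.69 to 11.9 CPM, against 15.1 to 79.7 CPM at 40 mg/mL with no overlap (-2.39, SE 0.51, adjusted p = 0.0292). Pcgf2, a Polycomb protein (-1.07), Csad, an enzyme of taurine synthesis (-1.84), Arhgap5, a GTPase-activating protein (-0.77), and probe Scp2_72800 of Scp2 fell as well.

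On the higher side at 10 mg/mL, Sult5a1 had 1.67, 8.88 and 15.7 CPM, against 0.399, 2.28 and 4.11 CPM at 40 mg/mL (log2 fold change 2.07, SE 0.42, adjusted p = 0.0125). Slc46a3, a lysosomal carrier, had 23.9 to 40.4 CPM against 12.7 to 25.6 CPM (0.72, adjusted p = 0.0314). Lhpp passed at Lhpp_65259 (0.98) and not at its most abundant probe Lhpp_68603 (0.62), and Igfbp4, an IGF-binding protein, at Igfbp4_76799 (0.69) and not at Igfbp4_71725 (0.29). When single animals were left out, Lepr and Igfbp4 did not pass in 5 of 18 fits each (adjusted p up to 0.0852 and 0.112), Slc46a3 in 4 (up to 0.123), Csad in 2 (up to 0.0613) and Sult5a1 in 1 (0.0561). The 18 fits left out animals at 10 mg/mL or controls, and controls enter this comparison only through the shared fit. No animal at 40 mg/mL was left out, so the 18 overstate how far these calls were tried. Igfbp4 was also lost with its probes summed (adjusted p = 0.547). Cyp2b10 (-0.35, SE 0.71), Cyp2c29 (0.09, SE 0.39) and Cyp2a5 (0.40, SE 0.24) did not pass between the doses. The count was 8 without dosed replicate 4 and 8 without dosed replicate 6. DESeq2 called 56 (30 higher, 26 lower), limma 182 (100 higher, 82 lower), the 2 groups alone 29 (20 higher, 9 lower) and a fit with each library's scaling factor (log2) as a further term 225 (60 higher, 165 lower), so both the number and its split by direction depended on the model.

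The other doses at 28 d share the same controls, so their values are only set side by side. Cyp2b10 had medians of 51.5, 335, 700.4 and 338 CPM at 0, 10, 20 and 40 mg/mL, with ranges of 23.7 to 95.2, 153 to 610.4, 103 to 2095 and 24.7 to 1201 CPM. Every animal at 10 and 20 mg/mL was above all controls, while the lowest at 40 mg/mL lay inside their range. The log2 fold changes against control were 2.48, 3.78 and 2.83 at 10, 20 and 40 mg/mL (edgeR adjusted p = 0.999, 0.0497 and 0.221). Cyp2c29 gave 1.42, 1.74 and 1.34, and Cyp2a5 0.85, 0.37 and 0.45. Over all probes 0 passed at 10 mg/mL, 27 at 20 mg/mL (0.158%) and 1 at 40 mg/mL (0.00587%), which was Serpina7_66792 (4.04, adjusted p = 0.0166).

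**Figure D4:**
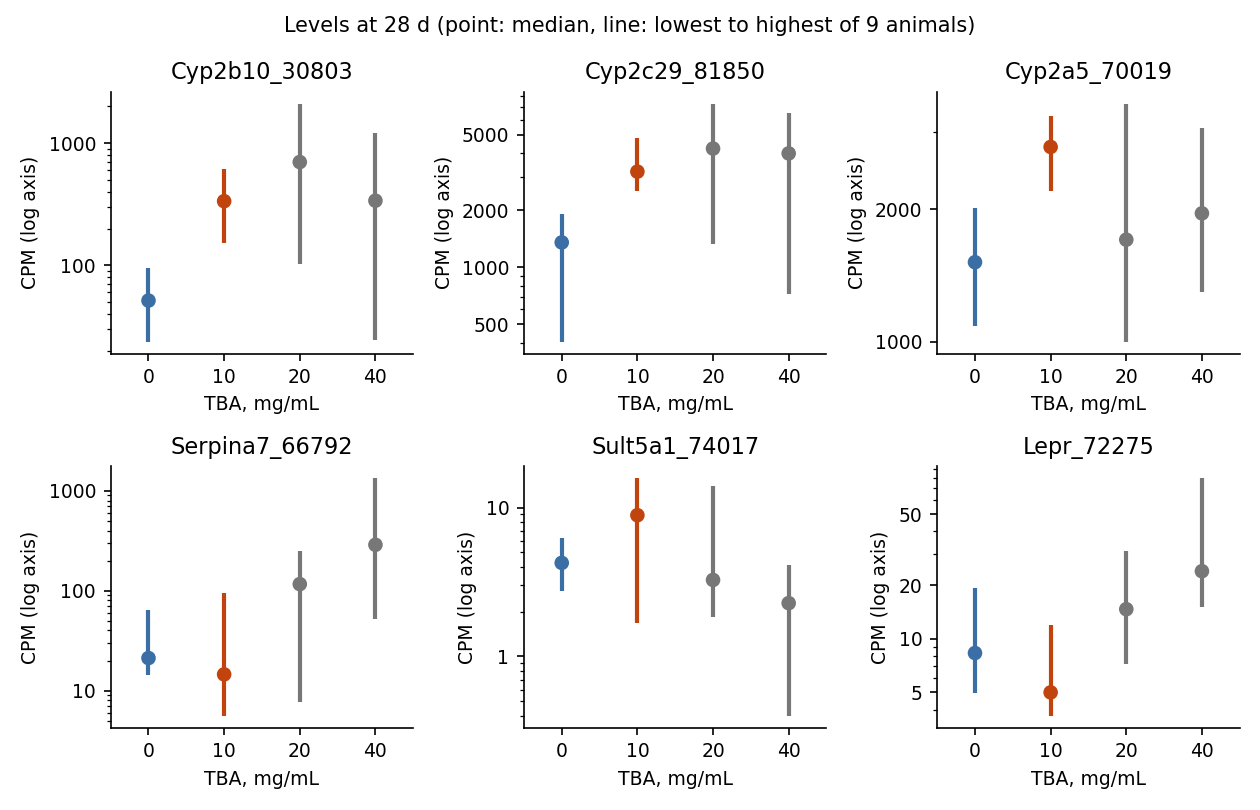
CPM (log axis) at 28 d over the doses 0, 10, 20 and 40 mg/mL (x axis), as the median (point) and the range of 9 animals (line), for 6 probes. Cyp2b10 and Cyp2c29 at 10 mg/mL lie wholly above the controls, and Serpina7 and Lepr have their highest medians, 288 and 24.0 CPM, at 40 mg/mL.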

How the data were processed

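Gene expression was measured by TempO-Seq in 72 liver libraries. The submitters' processing notes name bcl2fastq 2.20 and Bowtie. The Bowtie version, the genome build and the counting tool are not given in the sources used here. The authors deposited raw counts per probe, neither scaled nor logged. Groups came from the labels, which give no batch or pairing, and replicates were numbered in the order listed. The members and gene lists were chosen with earlier results of these data known.

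One library of 0.0108 M counts (40 mg/mL, 14 d) fell under the minimum of 100000 and was left out, and the 71 kept held 7.77 to 12.7 M counts. The number of animals, more than depth, limits the precision. Within the 2 groups no pair of libraries agreed within sampling noise. Counts were fitted in R 4.3.3 with edgeR 4.0.16 (filterByExpr over 8 groups, TMM scaling, robust quasi-likelihood fit, 1 mean per group, common biological coefficient of variation 0.402) and adjusted over all 17050 probes at 0.05 (Benjamini-Hochberg). limma 3.58.1 and DESeq2 1.42.0 were alternatives, the scripts were tested on simulated data, and library measures were compared by exact permutation over 9 against 9 animals, adjusted over 3 measures, with a smallest possible p of 4.11e-05. P-values measure the spread between singly housed animals.

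Each gene stands for its most abundant probe unless another is named, and CPM use the TMM library sizes. Named are 22 set genes, mostly of thyroid hormone disposal, the 10 probes of smallest p each way averaging 5 CPM or more, up to 4 members of smallest p of each of 40 lists, of which only some are described, and up to 5 called probes each way between 10 and 40 mg/mL and between durations. Counts of list members at an unadjusted p describe the list and are no test of it. Some genes that this rule names are not reported here.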

Additional observations from a re-analysis of the deposited data

Results flagged for a closer look

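Of 188 groups of 9 values checked, 32 held 1 animal whose gap to its nearest neighbour took up more than 0.493 of the whole range (Dixon's ratio, on the log2 scale for probes and the linear scale for measures of the library), where chance gives about 1 in 20. Control replicate 3 was that animal in 24 of them. It was the lowest control for the thyroid hormone genes Ugt1a1 (965 CPM against 2386 to 3829.6 CPM in the other controls, ratio 0.657), Ugt1a9 (0.537), Ugt1a7c (0.576), Ugt2b1 (0.620), Slco1a1 (0.630), Slc10a1 (0.645), Ttr (0.791), Me1 (0.554) and Abcg2 (0.606). It was also the lowest for the P450 genes Cyp2c29 (0.632), Cyp2c55 (0.720), Cyp3a11 (0.643) and Cyp2e1 (0.654), and for Adh1 (0.545), the most abundant probe of Slc6a12 (0.632), Baat (0.702), Hspa5 (0.507), Rsad2 (0.674), Cbs (0.587) and Apoa1 (5753 CPM against 20567 to 42175 CPM, ratio 0.639). Its share of counts in the 20 most abundant probes was low (0.658) and its scaling factor high (0.716), and it was the highest control for Por (0.572) and Pex11a (0.679).

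Animals at 10 mg/mL stood apart as the lowest for Sult1d1 (replicate 6, ratio 0.493), Abcg2 (replicate 6, 0.688), Abhd15 (replicate 1, 0.567), Baat (replicate 2, 0.556), Txnrd1 (replicate 2, 0.690) and Clec4f (replicate 9, 0.564), and as the highest for Thrsp (replicate 7, 0.528). Control replicate 6 was far below the rest for the most abundant Arhgap21 probe (3.09 CPM against 13.1 to 34.4 CPM, ratio 0.586).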

How the results depend on the processing

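The count of probes called at 10 mg/mL against control was 0 in the edgeR fit over all groups and 0 to 0 when each of the 18 animals was left out. It was 18 with limma, 11 with the 2 groups fitted alone and 199 with control replicate 3 left out as well, a setting chosen after seeing the data. The difference between durations gave 2 calls with limma and 0 to 0 when single animals were left out. The 10 against 40 mg/mL count was 56 with DESeq2, 182 with limma, 225 with the scaling factor as a term, 29 with the groups alone, 7 with the failed library kept and 8 to 19 when single animals at 10 mg/mL or controls were left out (those at 40 mg/mL were not). Leaving out single animals moved the difference in library total from 0.396 to 0.753 M, in the share of the 20 most abundant probes from -1.80 to -0.518 percentage points and in the scaling factor from 0.0155 to 0.0884. Cyp2b10, Cyp2c29 and Cyp2a5 stayed above 0 in every setting run.

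The log2 fold changes whose direction turned were all smaller than their standard error. Without control replicate 3 and with the groups alone, Ugt1a1 was -0.0202 and Ugt2b1 -0.0866. limma gave Ugt2b1 -0.14 and Thrsp -0.0915. The scaling factor as a term gave Ugt1a9 0.22, Dio1 0.00358, Ttr 0.0313, Cyp3a11 0.21 and Cyp2e1 0.0616, and probes summed per gene gave Cyp3a11 0.0487. Leaving out single animals gave -0.0366 to 0.16 for Ugt1a1, -0.10 to 0.0836 for Ugt2b1, -0.89 to 0.0525 for Serpina7, -0.19 to 0.67 for Thrsp and -0.18 to 0.0462 for Cyp3a11. The cause was not tested. No paired analysis was possible because the labels give the animals no replicate numbers.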

Other observations

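Arntl and Dbp, clock genes that peak at opposite times of day, had log2 fold changes of opposite sign. Arntl, which encodes the clock activator BMAL1, had 0.102, 1.67 and 4.99 CPM at 10 mg/mL (lowest, median and highest) and 2.48, 4.72 and 7.30 CPM in controls, with 6 of 9 dosed animals under every control (log2 fold change -1.15, SE 0.43). Dbp, an output gene of the clock, had 94.0, 201 and 316 CPM at 10 mg/mL and 9.48, 71.7 and 201 CPM in controls (1.36, SE 0.66), with replicate 3 as the highest control, and rose once that library was left out of the fit of the 2 groups alone (1.73, edgeR adjusted p = 0.0361). Per3, a repressor of the clock, was at 1.00 (SE 0.51). Of 20 tested clock genes 1 was higher and 1 lower at an unadjusted p under 0.05 (5% each, against 1.92% and 2.22% of all probes). The hour of sampling was not used here.

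Cytosolic ribosomal proteins had 8 of 75 tested members higher (10.7%) and 0 lower at an unadjusted p under 0.05 (median 0.11, 63 above 0). Over all probes 1.92% were higher and 2.22% lower. Rps15 had a log2 fold change of 0.38 (SE 0.14). Control replicate 3 was its highest control, and 6 members rose without it. Of 13 iron-handling genes 2 were higher (15.4%): Bmp6, the endothelial inducer of hepcidin, with 5.23 to 9.95 CPM at 10 mg/mL and 2.91 to 6.83 CPM in controls (0.61, SE 0.24), and Hfe (0.28, SE 0.12). Rsad2, an antiviral gene induced by interferon, had medians of 7.47 CPM at 10 mg/mL and 15.1 CPM in controls (-0.85, SE 0.37). Control replicate 3 was its lowest control at 4.24 CPM. Rsad2 fell in the fit of the groups alone without that library (-0.96, edgeR adjusted p = 0.00942). Its less abundant probe, Rsad2_65054, had -0.42 (SE 0.56) over the 8 groups and did not pass in that fit (0.558). Rsad2 was the 1 member of 38 in its list that was lower at an unadjusted p under 0.05, while 18 of 38 had a negative value. That share, 2.63%, was near the 2.22% over all probes.

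In the remaining lists, counted at an unadjusted p under 0.05 (1.92% of all probes higher and 2.22% lower), NRF2 targets had 2 of 26 higher, Cyp2a5 and Htatip2 (0.40), and 2 lower, the oxidative stress gene Osgin1 (-0.74) and the thioredoxin reductase Txnrd1 (-0.25). The other Txnrd1 probes gave 0.27 (Txnrd1_31483) and -0.11 (Txnrd1_72590). Cholesterol synthesis and uptake had 1 of 26 higher, the sterol carrier Stard4 (0.70), with 23 above 0. Acute phase genes had 1 of 28 higher, the interleukin-1 antagonist Il1rn (0.72), and glucose and glycogen metabolism had 1 of 22 lower, the lactate dehydrogenase subunit Ldha (-0.42), shares of 3.57% and 4.55% near those over all probes. Ldha_77657 fell in the fit of the groups alone without control replicate 3 (edgeR adjusted p = 0.0161). Its second probe, Ldha_68405, had -0.0045 over the 8 groups and did not pass in that fit (0.953). AHR targets had 1 of 4 higher, Tiparp (0.55), and subunits of oxidative phosphorylation 3 of 72 higher and 0 lower, with a median of -0.05. None of these 3 passed in the fit of the groups alone without control replicate 3, where Cox6c (-0.59, edgeR adjusted p = 0.0419) and Cox5a (-0.37, adjusted p = 0.0432) fell.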
